A study of Mus musculus with 5 samples.

Results

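Antioxidant genes controlled by the transcription factor NRF2 were described in whole lungs of Cldn4 knockout and wild type mice, with and without injurious ventilation. The genes are Slc7a11, Hmox1, Nqo1, Gclm, Gclc, Txnrd1, Srxn1, Gsr, Nfe2l2 and Osgin1, chosen by symbol, and all 10 were found among the 21590 genes of each deposited table. Their Entrez gene IDs there are 26570, 15368, 18104, 14630, 14629, 50493, 76650, 14782, 18024 and 71839, in that order. The 5 groups were Cldn4 knockouts whose ventilation injury exceeded that of wild type mice (KO_VILIhigh), knockouts whose injury was like that of wild type mice (KO_VILIlow), ventilated wild type (WT_VILI), unventilated knockout (KO_noVILI) and unventilated wild type (WT_noVILI). All mice were of a mixed 129S6, C57BL/6 and BALB/c background, and ventilation lasted 2 h at 40 cmH2O, a stretch that injures the lung (ventilator-induced lung injury, VILI). The deleted gene codes for a claudin that sits in epithelial tight junctions. The ventilated knockouts were sorted into their 2 groups by the injury itself. The age and sex of the mice and the construction of the knockout are not given in the sources used here. The design text gives 2 libraries per group, while the sample records number 1 per group. The files hold 4 comparison tables made by the authors and 0 columns of values per library, so depth is unknown and no spread between lungs can be shown. Nothing says that the libraries came from separate animals. How the spread behind the authors' p-values was estimated is not given, so they cannot be read as measuring spread between animals.

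NRF2, encoded by Nfe2l2, is held in the cytoplasm by KEAP1, which marks it for degradation. Oxidants and electrophiles modify KEAP1, and NRF2 then enters the nucleus, pairs with a small MAF protein and binds antioxidant response elements. Its targets make glutathione, recycle thioredoxin and peroxiredoxin, break down heme and detoxify quinones. In the lung the pathway is known for protection against hyperoxia, inhaled oxidants and overdistension. BACH1 competes for the same elements, and several targets are also controlled by AP-1, by ATF4 or by heme.

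The level of each gene in each group was rebuilt from the authors' deposited tables, which give a fold change and a mean CPM (counts scaled to library size). WT_VILI could be rebuilt from 3 tables and WT_noVILI from 2, and the median of these is given. The rebuilt values of a member differed by at most 9.29 percent in WT_VILI (Nqo1) and 2.27 percent in WT_noVILI (Nfe2l2). Levels are not corrected for transcript length and are compared only within a gene. Cldn4 stood at 0.122 CPM in KO_VILIhigh, 0.0212 CPM in KO_VILIlow, 140 CPM in WT_VILI, 0.14 CPM in KO_noVILI and 9.18 CPM in WT_noVILI, as the genotype labels say. Defining lung genes were present in all groups: 7 alveolar type 2 genes summed to 19153 to 21688 CPM and 6 endothelial genes to 3558 to 4346 CPM. Sftpc and the club cell gene Scgb1a1 have a fold change of exactly 0 in all 4 of the authors' deposited tables, so nothing can be said of their changes. Sftpc, at 10193 to 11768 CPM, is the largest part of the alveolar type 2 sum. That sum therefore shows presence and not stability between groups. The sex-linked transcript Xist stood at 2.56 CPM in KO_VILIhigh, 4.08 CPM in KO_VILIlow and 5.95 CPM in WT_VILI, against 505 CPM in KO_noVILI and 890 CPM in WT_noVILI. The Y-linked Ddx3y ran the opposite way, from 90.7 to 114 CPM in the ventilated groups and at 0.421 CPM or less in the unventilated ones. Every comparison of ventilated with unventilated lungs therefore also differs in sex-linked transcripts, and sex cannot be told apart from ventilation there.

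Promoters of 6 members are shown because they hold the motifs searched for and belong to genes with and without a call after ventilation. RefSeq (GRCm38.p6) windows of 250 bases before to 50 bases after the annotated start were found for 7 of the 10 members, with 3 windows for Txnrd1. The authors aligned to another build, mm9, so these positions are not tied to their reads. Shown are Slc7a11 (chr3:50443564-50443863, minus strand), Srxn1 (chr2:152105274-152105573, plus strand), Osgin1 (chr8:119436897-119437196, plus strand), the second window of Txnrd1 (chr10:82858956-82859255, plus strand), Gclm (chr3:122245307-122245606, plus strand) and Nfe2l2 (chr2:75704614-75704913, minus strand). Positions count from 1 at the start itself, with negative numbers before it. Capitals mark matches, on either strand, to the antioxidant response element core TGACNNNGC, the AP-1 site TGANTCA or the ATF4-type element TGATGNAA.
Slc7a11: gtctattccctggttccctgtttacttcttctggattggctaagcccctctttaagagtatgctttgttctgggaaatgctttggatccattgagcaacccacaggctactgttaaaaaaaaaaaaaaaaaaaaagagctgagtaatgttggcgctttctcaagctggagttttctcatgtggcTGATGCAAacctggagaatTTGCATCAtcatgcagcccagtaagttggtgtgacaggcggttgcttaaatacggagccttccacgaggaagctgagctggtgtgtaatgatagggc
Srxn1: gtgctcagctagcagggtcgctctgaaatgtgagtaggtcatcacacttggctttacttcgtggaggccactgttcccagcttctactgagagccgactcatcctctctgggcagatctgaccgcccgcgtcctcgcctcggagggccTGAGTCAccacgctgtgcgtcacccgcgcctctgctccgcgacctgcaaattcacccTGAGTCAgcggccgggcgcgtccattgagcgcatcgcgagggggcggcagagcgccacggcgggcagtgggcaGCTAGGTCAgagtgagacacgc
Osgin1: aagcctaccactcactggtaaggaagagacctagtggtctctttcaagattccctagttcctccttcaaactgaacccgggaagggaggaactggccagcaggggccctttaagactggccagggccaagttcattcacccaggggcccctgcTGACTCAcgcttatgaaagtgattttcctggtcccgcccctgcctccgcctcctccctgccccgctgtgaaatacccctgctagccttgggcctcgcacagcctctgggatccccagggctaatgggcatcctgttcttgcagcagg
Txnrd1: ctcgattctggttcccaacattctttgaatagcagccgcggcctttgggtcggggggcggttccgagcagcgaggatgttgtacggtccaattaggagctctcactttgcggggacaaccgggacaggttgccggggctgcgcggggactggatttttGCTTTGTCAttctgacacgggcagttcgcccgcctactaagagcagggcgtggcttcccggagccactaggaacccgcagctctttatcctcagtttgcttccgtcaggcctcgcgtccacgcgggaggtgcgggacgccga
Gclm: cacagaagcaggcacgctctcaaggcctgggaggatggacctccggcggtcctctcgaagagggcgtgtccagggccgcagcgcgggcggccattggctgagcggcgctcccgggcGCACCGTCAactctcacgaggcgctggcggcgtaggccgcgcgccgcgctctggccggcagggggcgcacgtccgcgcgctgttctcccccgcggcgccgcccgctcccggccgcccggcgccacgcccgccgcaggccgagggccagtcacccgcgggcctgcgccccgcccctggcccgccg
Nfe2l2: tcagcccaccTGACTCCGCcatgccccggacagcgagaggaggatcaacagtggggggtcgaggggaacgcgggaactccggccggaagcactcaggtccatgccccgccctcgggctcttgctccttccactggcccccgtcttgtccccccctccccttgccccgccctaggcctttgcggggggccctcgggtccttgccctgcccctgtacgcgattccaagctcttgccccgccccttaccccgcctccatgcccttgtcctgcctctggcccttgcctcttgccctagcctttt

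The core TGACNNNGC was matched in 4 of the 9 windows, those of Gclm, Nfe2l2, Srxn1 and Txnrd1, against 12.4 percent of all 32851 RefSeq windows. In Txnrd1 it lay at positions -92 to -84, in Gclm at -134 to -126, in Nfe2l2 at -240 to -232, and in Srxn1 downstream of the start at 29 to 37. AP-1 sites were matched in 2 windows, against 7.81 percent of all windows. Srxn1 held a pair of them, at -102 to -96 and -45 to -39, and Osgin1 held 1 at -97 to -91. The ATF4-type element was matched in Slc7a11 alone among the members, at -66 to -59 and, on the other strand, at -47 to -40, against 3.97 percent of all windows. No match overlapped another. A wider core, TGANNNNGC, was searched after the first matches had been seen and was found in 7 of the 9 windows, but also in 41.3 percent of all windows. It overlapped an AP-1 site in Srxn1 and in Osgin1 and an ATF4-type element in Slc7a11. A match describes letters only, and elements outside these windows were not searched.

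**Figure D1:**
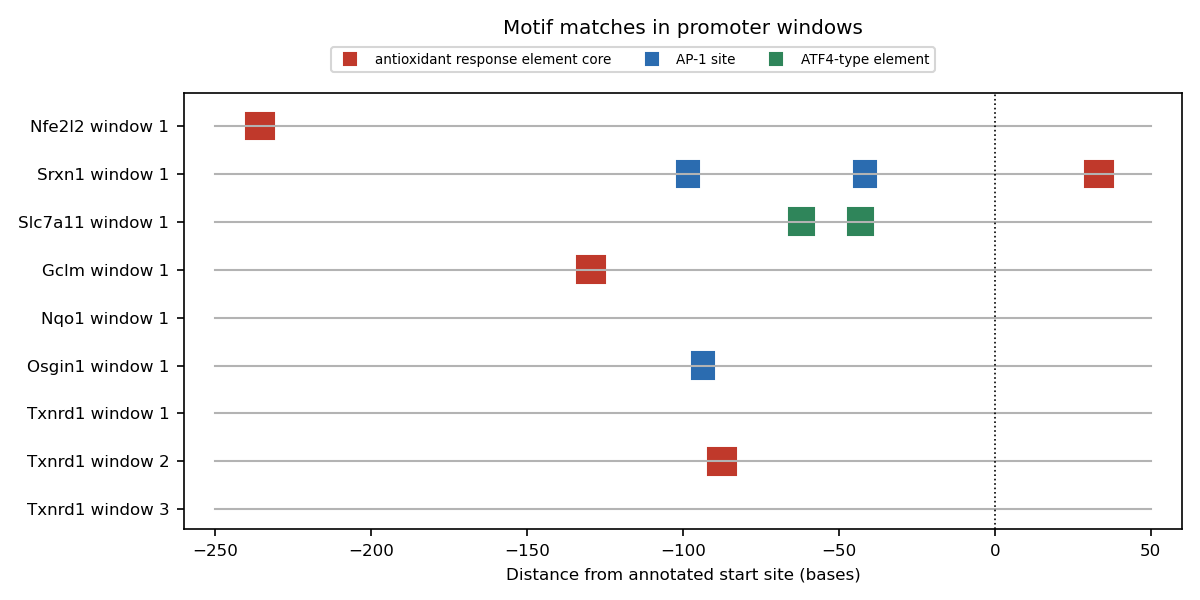
Matches to 3 motifs in the promoter windows of 7 members, by distance in bases from the annotated start (dotted line). Each row is 1 window, and boxes are matches on either strand. The pair of ATF4-type elements lies in Slc7a11, AP-1 sites lie in Srxn1 and Osgin1, and antioxidant response element cores lie in Nfe2l2, Srxn1, Gclm and the second Txnrd1 window.

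Most of these genes stood higher in ventilated than in unventilated wild type lungs, groups that sex-linked transcripts separate as well. A gene is called at an adjusted p of 0.05 or less. In the authors' edgeR comparison of WT_VILI against WT_noVILI, 7 of the 10 members rose and 0 fell. Of all 21590 genes 4.85 percent rose, or 7.33 percent of the 13801 genes with a log2 mean CPM of at least 1. In either direction, 9.09 percent of all genes were called. The members were chosen with earlier results of these data known, so these shares describe the list and are no test of it. At an unadjusted p under 0.05 all 10 members passed in the authors' edgeR test, 9 of them higher and Nfe2l2 lower. The share of all genes at an unadjusted p was not counted, here or below, so such counts stand without a background. The members' median log2 fold change in the authors' deposited table was 1.101, beside -0.02 over those 13801 genes. Slc7a11, Srxn1 and Gclc led, and the 3 members without a call were Gclm, Gsr and Nfe2l2 itself.

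Glutathione synthesis begins with cystine uptake. Slc7a11 encodes xCT, the cystine/glutamate antiporter that supplies cysteine. It stood at 49.6 CPM in KO_VILIhigh, 43.7 CPM in KO_VILIlow and 53.7 CPM in WT_VILI, against 3.28 CPM in KO_noVILI and 5.02 CPM in WT_noVILI. All 3 ventilated groups lay far above both unventilated groups, and the high-injury knockouts were not the highest. The log2 fold change of WT_VILI against WT_noVILI in the authors' deposited table was 3.48 (adjusted p = 3.43e-36). By size of rise it was number 22 of the 13801 genes with a log2 mean CPM of at least 1. The xCT partner chain Slc3a2, which serves several amino acid transporters, was at 0.36 (adjusted p = 0.0579) in the same authors' deposited table.

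Gclc encodes the catalytic subunit of glutamate-cysteine ligase, the rate-limiting enzyme of glutathione synthesis, and Gclm encodes its modifier subunit. The catalytic subunit stood at 183 CPM in KO_VILIhigh, 174 CPM in KO_VILIlow and 229 CPM in WT_VILI, against 52.0 CPM in KO_noVILI and 58.3 CPM in WT_noVILI. Gclm stood at 36.2 CPM in KO_VILIhigh, 42.7 CPM in KO_VILIlow and 36.5 CPM in WT_VILI, against 30.4 CPM in KO_noVILI and 27.9 CPM in WT_noVILI. Both subunits were lowest in unventilated lungs, but the gap was wide for Gclc and narrow for Gclm. After ventilation of wild type mice, Gclc rose by 1.95 log2 units (adjusted p = 1.47e-20) in the authors' deposited table, while Gclm was at 0.46 (adjusted p = 0.0547). With Benjamini-Hochberg adjustment over genes with a log2 mean CPM of at least 1, Gclm passed (adjusted p = 0.0363). The difference between the subunits was not tested. Gss, glutathione synthetase, which completes the molecule, rose by 0.53 in the authors' deposited table (adjusted p = 0.0215).

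Gsr encodes glutathione reductase, which regenerates reduced glutathione. Its level was 74.5 CPM in KO_VILIhigh, 70.0 CPM in KO_VILIlow and 59.1 CPM in WT_VILI, against 49.97 CPM in KO_noVILI and 48.1 CPM in WT_noVILI. Both unventilated groups lay below the ventilated ones, and Gsr was called in none of the authors' 4 comparisons. The authors' deposited table puts WT_VILI 0.33 log2 units above WT_noVILI (adjusted p = 0.151).

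Both members of the thioredoxin branch rose. Srxn1 encodes sulfiredoxin, which restores overoxidized peroxiredoxins. Its level was 379 CPM in KO_VILIhigh, 274 CPM in KO_VILIlow and 182 CPM in WT_VILI, against 32.9 CPM in KO_noVILI and 29.0 CPM in WT_noVILI. Txnrd1, cytosolic thioredoxin reductase, stood at 428 CPM in KO_VILIhigh, 372 CPM in KO_VILIlow and 285 CPM in WT_VILI, against 109 CPM in KO_noVILI and 112 CPM in WT_noVILI. For both genes the ventilated groups were ordered with KO_VILIhigh first and WT_VILI last, and both unventilated groups lay well below. Relative to WT_noVILI, Srxn1 rose by 2.64 (adjusted p = 8.96e-48) and Txnrd1 by 1.30 (adjusted p = 4.51e-17) on the log2 scale in WT_VILI, in the authors' deposited table.

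Hmox1 encodes heme oxygenase-1, which splits heme into biliverdin, carbon monoxide and iron. It stood at 158 CPM in KO_VILIhigh, 86.3 CPM in KO_VILIlow and 63.3 CPM in WT_VILI, against 35.2 CPM in KO_noVILI and 27.8 CPM in WT_noVILI. Osgin1, an oxidative stress-induced growth inhibitor, stood at 142 CPM in KO_VILIhigh, 99.8 CPM in KO_VILIlow and 66.1 CPM in WT_VILI, against 33.0 CPM in KO_noVILI and 34.2 CPM in WT_noVILI. Both genes had their highest rebuilt level in the high-injury knockouts and lower levels in unventilated than in ventilated lungs. Relative to WT_noVILI, Hmox1 rose by 1.22 (adjusted p = 8.66e-11) and Osgin1 by 0.98 (adjusted p = 3.65e-08) on the log2 scale in WT_VILI, in the authors' deposited table.

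Nqo1 encodes a quinone reductase that is widely used as a readout of NRF2 activity. Its level was 21.3 CPM in KO_VILIhigh, 17.5 CPM in KO_VILIlow and 20.0 CPM in WT_VILI, against 8.53 CPM in KO_noVILI and 11.5 CPM in WT_noVILI. The 3 ventilated groups lay close together. The log2 fold change of WT_VILI against WT_noVILI was 0.92 in the authors' deposited table (adjusted p = 0.000667).

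Nfe2l2 itself was called in none of the comparisons. Its level was 216 CPM in KO_VILIhigh, 249 CPM in KO_VILIlow and 217 CPM in WT_VILI, against 257 CPM in KO_noVILI and 256 CPM in WT_noVILI. All 5 groups lay within a narrow band, with the lowest values in ventilated lungs. In the authors' deposited table WT_VILI was at -0.27 against WT_noVILI (p = 0.0428, adjusted p = 0.251 in the authors' edgeR test). NRF2 is regulated mainly by protein stability, which these data do not measure.

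**Figure D2:**
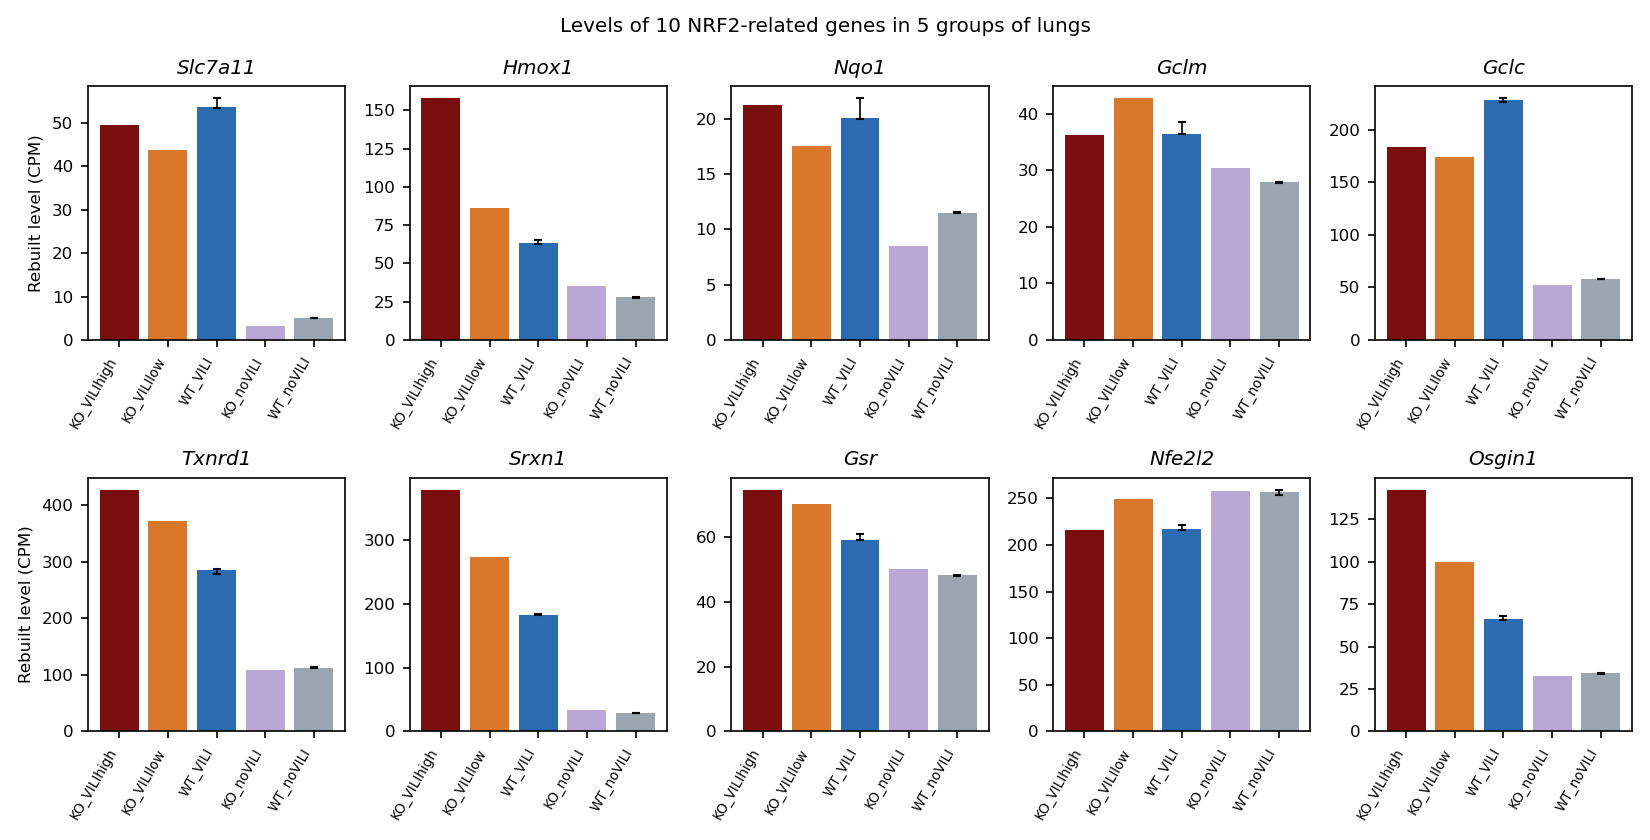
Rebuilt levels in CPM of the 10 genes in the 5 groups, on linear axes that start at 0. Bars are the value or, for WT_VILI (3 tables) and WT_noVILI (2 tables), the median over tables, with whiskers for the lowest and highest rebuilt value and no measure of spread between lungs. Slc7a11 and Gclc are no higher in ventilated knockouts than in WT_VILI, whereas Hmox1, Srxn1 and Osgin1 are highest in KO_VILIhigh.

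High-injury knockout lungs differed from ventilated wild type lungs in 3 members. In the authors' edgeR comparison of KO_VILIhigh against WT_VILI, Hmox1, Osgin1 and Srxn1 rose and 0 of the 10 fell. At an unadjusted p under 0.05 of the authors' edgeR test, 4 members were higher, Txnrd1 being the addition, and 0 lower. Of all genes 1.13 percent rose, or 1.73 percent of the 13724 genes with a log2 mean CPM of at least 1, and 1.56 percent of all genes were called in either direction. Log2 fold changes in the authors' deposited table were 1.33 for Hmox1 (adjusted p = 1.91e-07), 1.11 for Osgin1 (adjusted p = 3.58e-05) and 1.05 for Srxn1 (adjusted p = 0.00047). Txnrd1 was at 0.59 (adjusted p = 0.18) and Gsr at 0.34 (adjusted p = 0.82) in the authors' deposited table. The genes of cystine uptake and glutathione synthesis gave no call. Gclc was at -0.32, Slc7a11 at -0.11 and Gclm at -0.01 in the authors' deposited table, each with an adjusted p equal to 1. The same adjusted p was given for Nqo1 at 0.09 and Nfe2l2 at -0.01 by the authors' edgeR test. The members' median log2 fold change in the authors' deposited table was 0.21, beside 0 over genes with a log2 mean CPM of at least 1. Whether the rises of Hmox1, Osgin1 and Srxn1 differ from the values of the other members was not tested.

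Markers of other cells also differed between these groups. Of 7 alveolar macrophage markers, 2 rose in KO_VILIhigh against WT_VILI, Marco by 2.05 and Chi3l3 by 1.27 log2 units in the authors' deposited table. Summed over the list, alveolar macrophage markers stood at 410 CPM in KO_VILIhigh, 433 CPM in KO_VILIlow and 257 CPM in WT_VILI, against 481 CPM in KO_noVILI and 404 CPM in WT_noVILI. Chi3l3 was the largest part of that sum, at 252 CPM in KO_VILIhigh, 270 CPM in KO_VILIlow and 105 CPM in WT_VILI. Only 4 of the 7 had positive log2 fold changes in KO_VILIhigh against WT_VILI in the authors' deposited table. Neutrophil markers, 9 of 10 measured, summed to 1155 CPM in KO_VILIhigh, 833 CPM in KO_VILIlow and 647 CPM in WT_VILI, against 171 CPM in KO_noVILI and 168 CPM in WT_noVILI. Ngp alone of these rose in KO_VILIhigh against WT_VILI, by 1.67, and all 9 rose in WT_VILI against WT_noVILI in the authors' deposited tables. Red blood cell markers, 4 of 7 measured, summed to 1941 CPM in KO_VILIhigh, 2114 CPM in KO_VILIlow and 565 CPM in WT_VILI, against 3700 CPM in KO_noVILI and 2398 CPM in WT_noVILI. Of these 4, Alas2 (2.26) and Hba-a2 (1.77) rose in KO_VILIhigh against WT_VILI in the authors' deposited table. Monocyte and interstitial macrophage markers summed to 473 CPM in KO_VILIhigh, 415 CPM in KO_VILIlow and 375 CPM in WT_VILI, against 371 CPM in KO_noVILI and 379 CPM in WT_noVILI. Of these 10, Cd14 alone rose in KO_VILIhigh against WT_VILI, by 1.67 in the authors' deposited table, where 8 had positive log2 fold changes. Cd14 stood at 138 CPM in KO_VILIhigh and 43.8 CPM in WT_VILI, while Ly6c2 stood at 49.0 CPM and 77.3 CPM. Of 6 cardiac muscle markers, all 6 had positive log2 fold changes in KO_VILIhigh against WT_VILI in the authors' deposited table, with a median of 1.54, and 2 were called. Among the members, Hmox1, Srxn1 and Gsr had the same order of groups as the neutrophil sum. The part of any of these cells in the members' changes was not tested. In whole lung, more cells of a type and more RNA per cell cannot be told apart.

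Low-injury knockout lungs gave no call against ventilated wild type lungs. In the authors' edgeR table of KO_VILIlow against WT_VILI, 0 of the 10 members passed, where 0.973 percent of all genes did. At an unadjusted p under 0.05, 4 of the 10 members passed in the authors' edgeR test, and the share of all genes at that threshold was not counted. Of these, 3 stood higher in KO_VILIlow in the authors' deposited table, Osgin1 by 0.59 (adjusted p = 0.132), Srxn1 by 0.57 (adjusted p = 0.179) and Txnrd1 by 0.38 (adjusted p = 0.788). The other one was Gclc, at -0.40 (adjusted p = 0.828) in the authors' deposited table. Hmox1 stood at 0.45 (adjusted p = 0.931) and Slc7a11 at -0.30 (adjusted p = 1) in the authors' deposited table. This comparison and that of KO_VILIhigh share the WT_VILI libraries, so their values are not independent. Cardiac muscle markers rose in 5 of 6 cases in KO_VILIlow against WT_VILI in the authors' deposited table, and their sum was 526 CPM in KO_VILIhigh, 809 CPM in KO_VILIlow and 314 CPM in WT_VILI, against 190 CPM in KO_noVILI and 487 CPM in WT_noVILI. Whether heart tissue in the samples bears on the members' values was not tested.

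Without ventilation no member was called between the genotypes. In the authors' edgeR table of KO_noVILI against WT_noVILI, 0 of the 10 members passed, where 3.36 percent of all genes did, and at an unadjusted p under 0.05 only Hmox1 passed. Hmox1 stood at 0.35 (p = 0.0273, adjusted p = 0.298) in the authors' edgeR table. The most negative values in the authors' deposited table were -0.62 for Slc7a11 (adjusted p = 0.426) and -0.42 for Nqo1 (adjusted p = 0.572). The other 7 members lay between -0.16 for Gclc and 0.18 for Srxn1 in the authors' deposited table, each with an adjusted p of at least 0.911. The members' median log2 fold change was -0.005 there. Marker genes also differed there. In the same authors' deposited table, 1 of 7 alveolar macrophage markers (Marco, by 1.62), 3 of 10 monocyte and interstitial macrophage markers and 1 of 9 neutrophil markers rose. Called lower there were 4 of 6 cardiac muscle, 2 of 5 club cell, 2 of 4 ciliated cell, 2 of 4 T and B cell and 2 of 3 fat and skeletal muscle markers. In the T and B cell list the lower genes were the B cell genes Cd79a and Ms4a1, while Cd3e and Nkg7 had positive log2 fold changes. The part of all these markers in the members' values was not tested.

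**Figure D3:**
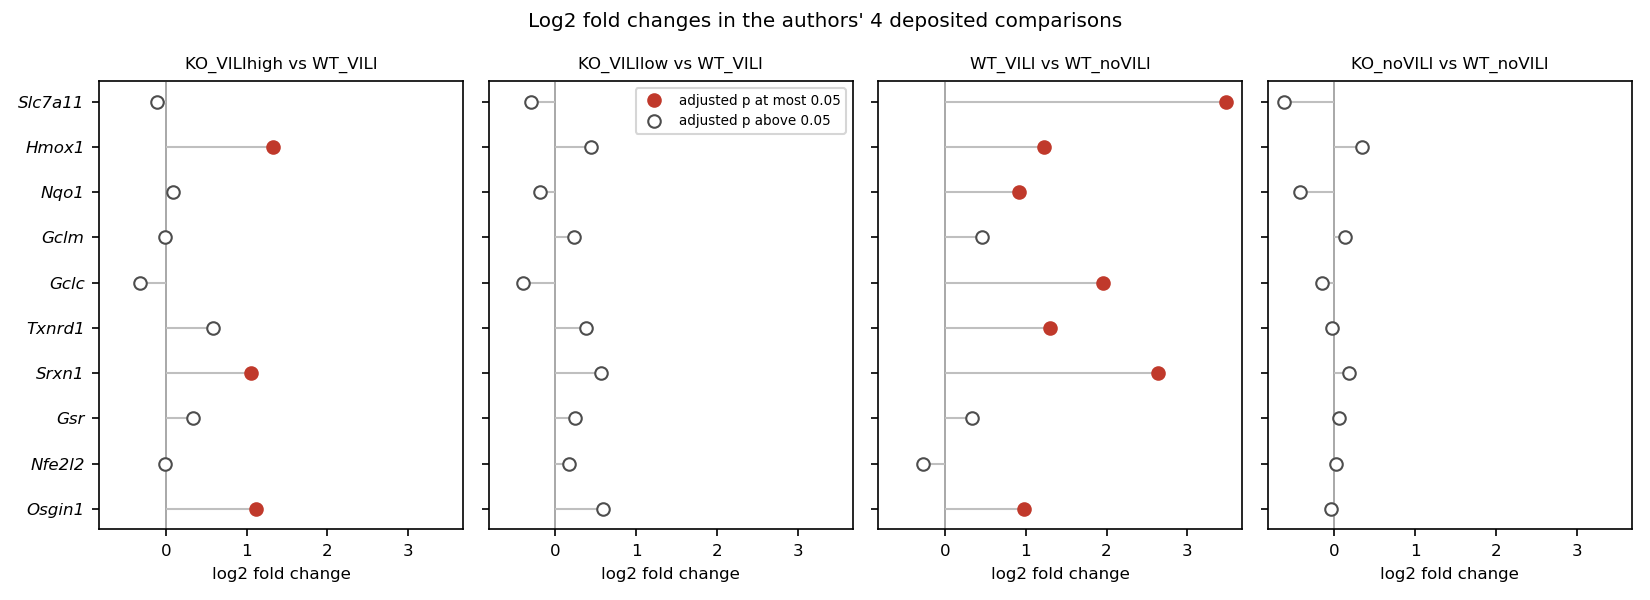
Log2 fold changes of the 10 genes in the authors' 4 deposited comparisons, with filled points for an adjusted p of at most 0.05. Filled points number 7 in WT_VILI against WT_noVILI, 3 in KO_VILIhigh against WT_VILI and none in the other comparisons.

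The response of the knockouts to ventilation is in no deposited table. It was derived by adding and subtracting the authors' log2 fold changes, with an approximate standard error (SE) taken from each deposited p. Where a group cancels out of the sum, the SE still counts its variance, which makes the tests among knockouts conservative. In KO_VILIhigh against KO_noVILI, 7 of the 10 members rose and 0 fell by the derived test, where 2.57 percent of 13382 genes rose. At an unadjusted p under 0.05 of the derived test, 8 members were higher, Gsr being the addition, and 0 lower. The same 7 members had risen in wild type. Derived log2 fold changes were 3.99 ± 0.48 for Slc7a11 (adjusted p = 1.94e-14), 3.51 ± 0.33 for Srxn1 (adjusted p = 2.61e-23) and 2.20 ± 0.32 for Hmox1 (adjusted p = 6.12e-10), each ± SE. Osgin1 followed at 2.14 ± 0.31 (SE; adjusted p = 1.28e-09), Txnrd1 at 1.91 ± 0.29 (SE; adjusted p = 1.28e-08), Gclc at 1.79 ± 0.41 (SE; adjusted p = 0.00082) and Nqo1 at 1.43 ± 0.43 (SE; adjusted p = 0.0277). Gsr was at 0.61 ± 0.29 (SE; adjusted p = 0.36), Gclm at 0.31 ± 0.33 (SE; adjusted p = 0.897) and Nfe2l2 at -0.30 ± 0.28 (SE; adjusted p = 0.857).

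In KO_VILIlow against KO_noVILI, 6 of the 10 members rose and 0 fell by the derived test, where 2.38 percent of 13353 genes rose. The derived test gave 7 members higher, Nqo1 being the addition, and 0 lower at an unadjusted p under 0.05. Slc7a11 was at 3.80 ± 0.49 (SE; adjusted p = 6.85e-12), Srxn1 at 3.03 ± 0.31 (SE; adjusted p = 1.77e-19) and Gclc at 1.71 ± 0.34 (SE; adjusted p = 5.21e-05). Txnrd1 was at 1.70 ± 0.27 (SE; adjusted p = 9.33e-08), Osgin1 at 1.62 ± 0.30 (SE; adjusted p = 7.07e-06) and Hmox1 at 1.32 ± 0.33 (SE; adjusted p = 0.00286). Nqo1 stood at 1.15 ± 0.41 (SE) and did not pass (adjusted p = 0.105). With the variances averaged instead of summed, 9 members rose instead of 6, with Nqo1 (adjusted p = 2.59e-05), Gclm (adjusted p = 0.0115) and Gsr (adjusted p = 0.00977) added. The same setting gave 8 instead of 7 in KO_VILIhigh against KO_noVILI, with Gsr added (adjusted p = 0.00315). The 6 genes called in the main test stood higher in ventilated than in unventilated knockouts at either injury level. Sex cannot be told apart from ventilation in these contrasts. Slc7a11 had the largest derived rise among the members in both.

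Between the knockout groups, 0 of the 10 members passed in KO_VILIhigh against KO_VILIlow by the derived test, where 0.17 percent of 13549 genes did, and 1 passed at an unadjusted p under 0.05. That member was Hmox1, at 0.88 ± 0.31 on the log2 scale (approximate SE; 95 percent interval 0.27 to 1.50; adjusted p = 0.731). With the variances of the 2 tables averaged instead of summed, Hmox1 passed (adjusted p = 0.0102). Osgin1 was at 0.52 with an interval of -0.04 to 1.08, and Srxn1 at 0.48 with an interval of -0.10 to 1.06. Slc7a11 was at 0.19 with an interval of -0.50 to 0.88 and Gclc at 0.09 with an interval of -0.62 to 0.80, and both intervals include 0.

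The genotype difference with ventilation minus that without was also derived, a test in which no group cancels, so its SE is not inflated in that way. Since sex-linked transcripts separate ventilated from unventilated groups, sex and ventilation cannot be told apart in this difference either. The ventilated knockouts were sorted by injury, so genotype and that sorting cannot be told apart in it. For high injury, 2 of the 10 members passed with a positive difference and 0 with a negative one by the derived test, where 1.25 percent of 13403 genes passed with a positive one. At an unadjusted p under 0.05 of the derived test, 4 members were positive, with Srxn1 and Txnrd1 added, and 0 negative. Osgin1 was at 1.16 ± 0.27 (SE; adjusted p = 0.00255) and Hmox1 at 0.98 ± 0.27 (SE; adjusted p = 0.0193). Srxn1 was at 0.87 ± 0.28 (SE) with an adjusted p of 0.0831, and Txnrd1 at 0.62 ± 0.26 (SE) with an adjusted p of 0.311. For low injury 0 of the 10 passed by the derived test, where 1.17 percent of 13365 genes did, and at an unadjusted p under 0.05 only Osgin1 passed, at 0.64 ± 0.25 (SE; adjusted p = 0.407).

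**Figure D4:**
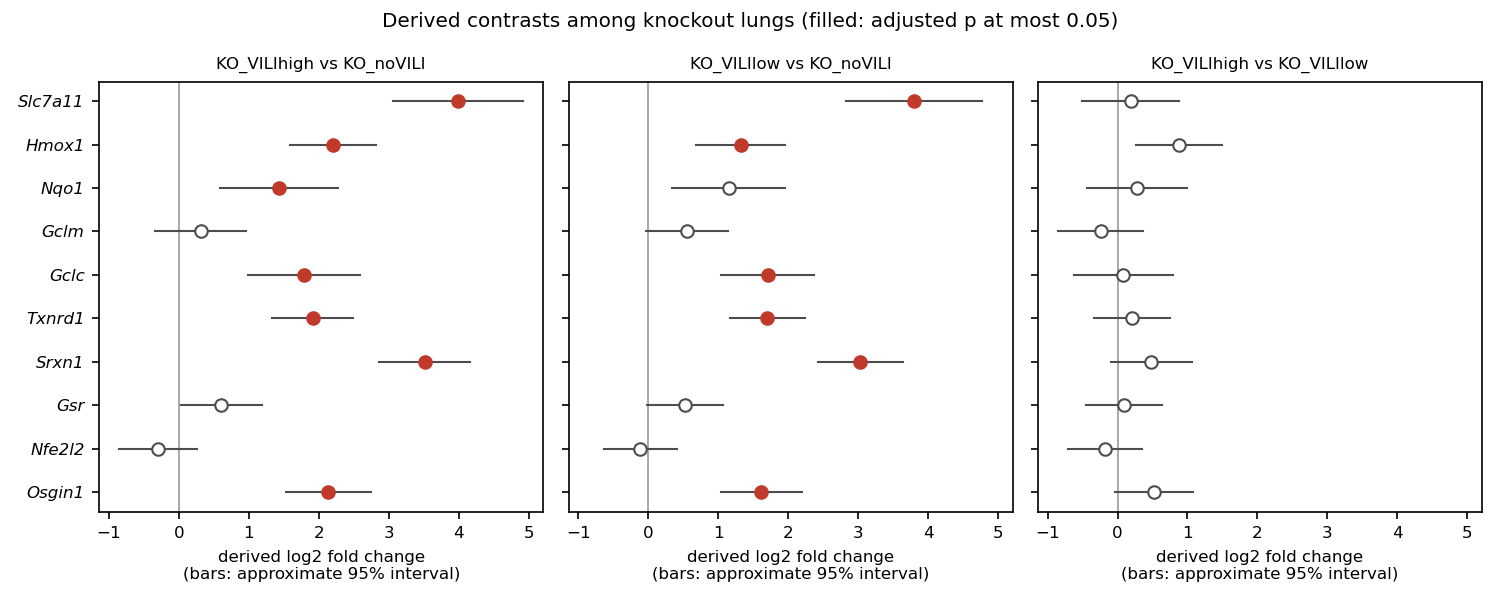
Derived log2 fold changes of the 10 genes among knockout lungs, with approximate 95 percent intervals, filled where the adjusted p was at most 0.05. Filled genes number 7 in KO_VILIhigh against KO_noVILI, 6 in KO_VILIlow against KO_noVILI and none in KO_VILIhigh against KO_VILIlow, where the interval of Hmox1 lies above 0 before adjustment.

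Genes that act on NRF2 moved in part. Among 11 regulators, 4 rose and 0 fell in the authors' edgeR comparison of WT_VILI against WT_noVILI, with a list median of 0.27. Of all genes 4.85 percent rose there. That test gave 5 regulators higher and 0 lower at an unadjusted p under 0.05. The 4 called were the 3 small MAF genes, whose proteins pair with NRF2 or BACH1, and Bach1. Log2 fold changes in the authors' deposited table were 2.55 for Maff (adjusted p = 9.49e-64), 0.95 for Mafk (adjusted p = 1.59e-10), 0.79 for Mafg (adjusted p = 0.000186) and 0.64 for Bach1 (adjusted p = 9.03e-05). Keap1, the inhibitor, was at 0.24 (adjusted p = 0.431) and Sqstm1, the p62 adaptor that sequesters KEAP1, at 0.28 (adjusted p = 0.19) in the authors' deposited table. In KO_VILIhigh against WT_VILI, Maff alone of the 11 rose in the authors' deposited table, by 0.87 (adjusted p = 0.00155), where 1.13 percent of all genes rose. Among knockouts Maff was at 3.58 ± 0.29 (SE; adjusted p = 1.33e-30) in KO_VILIhigh and 3.17 ± 0.28 (SE; adjusted p = 4.97e-26) in KO_VILIlow, each against KO_noVILI and derived. Its genotype difference with minus without ventilation was 1.02 ± 0.25 for high injury (derived; SE; adjusted p = 0.00689).

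Calls in the wider redox machinery were spread unevenly over its lists. Over 10 lists of related genes with 127 distinct members, 22 rose and 4 fell in the authors' deposited table of WT_VILI against WT_noVILI, with a median of 0.03. That is 20.5 percent of the 127 called, beside 9.09 percent of all genes. Of 18 other glutathione genes 4 rose: Chac1, which degrades glutathione, by 1.74, Gpx2, a glutathione peroxidase of epithelia, by 0.84, the exporter Abcc4 by 0.77, and Gss, in the authors' deposited table. Of 21 glutathione S-transferase genes 0 rose, also at an unadjusted p under 0.05 in the authors' edgeR test, and Gstk1 was lower at -0.49 in the authors' deposited table. Their median was -0.13. Several of these transferases have close copies, whose reads could have been split, so their single values are uncertain. Of 14 thioredoxin and peroxiredoxin genes, Sesn2 (1.67) and Sesn1 (0.60), sestrins, rose and Txnip, the thioredoxin-binding protein, was lower at -0.89 in the authors' deposited table. Thioredoxin itself, Txn1, stood at 0.22 (adjusted p = 0.521) and Prdx1 at -0.14 (adjusted p = 0.799) in the authors' deposited table.

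Further lists gave few calls in WT_VILI against WT_noVILI, where 4.85 percent of all genes rose and 9.09 percent were called in either direction. In lists this short, single calls lie near those shares and only describe the genes named. Genes that supply NADPH, the electron donor of these enzymes, gave 1 rise among 9 there, Pgd of the pentose phosphate pathway at 0.56 in the authors' deposited table. In the list of heme breakdown and iron storage 1 of 12 rose, the heme scavenger Hpx at 2.17, which averaged a log2 CPM of 1.05 in the authors' deposited table and is a low-abundance transcript. Ferritin genes gave no call. Among 13 detoxification genes Aldh3a1 (1.41) and Aldh1a1 (0.44), aldehyde dehydrogenases, rose and Cbr1 was lower at -0.50 in the authors' deposited table. Superoxide dismutases and catalase gave 0 calls among 4 in the authors' edgeR table, with a median of -0.30, and 2 were lower at an unadjusted p under 0.05. Of 10 genes of oxidant sources, Cybb, the phagocyte NADPH oxidase subunit, was lower at -1.22 in the authors' deposited table and 0 rose, also at an unadjusted p under 0.05 by the authors' edgeR test.

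In KO_VILIhigh against WT_VILI, 2 of the 127 rose, Maff and Cebpb, and 4 fell in the authors' deposited table. That makes 4.72 percent called, beside 1.56 percent of all genes. The falls were Sesn1 at -0.97, Nox4, an NADPH oxidase of structural cells, at -0.92, the amino acid transporter Slc7a5 at -0.90 and Vldlr at -0.82 in the authors' deposited table. In KO_VILIlow against WT_VILI the single call was Sesn1, lower at -0.74 in the authors' deposited table. That is 0.787 percent of the 127, near the 0.973 percent of all genes called there. In KO_noVILI against WT_noVILI 0 of 127 were called, where 3.36 percent of all genes were. At an unadjusted p under 0.05 by the authors' edgeR test, 17 of the 127 passed there.

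ATF4, the factor of the integrated stress response, also drives Slc7a11, and its list had the highest share of calls among the 10 after ventilation. The lists were chosen with earlier results of these data known, so that rank is a description only. Of all genes 4.85 percent rose in WT_VILI against WT_noVILI. In that comparison 8 of the 15 genes of the ATF4 list rose and none was called lower in the authors' deposited table, with a median of 0.46. They included Slc7a5 (2.28), Slc7a1 (1.48), a cationic amino acid transporter, Trib3 (1.39), Nupr1 (1.08) and Atf4 itself (0.63) in the authors' deposited table. Slc7a5 rose with Slc7a11 after ventilation of wild type lungs, and it was lower in KO_VILIhigh than in WT_VILI (adjusted p = 0.0266) in the authors' deposited table. Slc7a11 gave no call there, and the difference between these genes was not tested. In KO_VILIhigh against WT_VILI, Cebpb alone of the list rose, at 0.81 in the authors' deposited table. The pair of ATF4-type elements in the Slc7a11 promoter is shown above, and what drove the transcript was not tested.

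**Figure D5:**
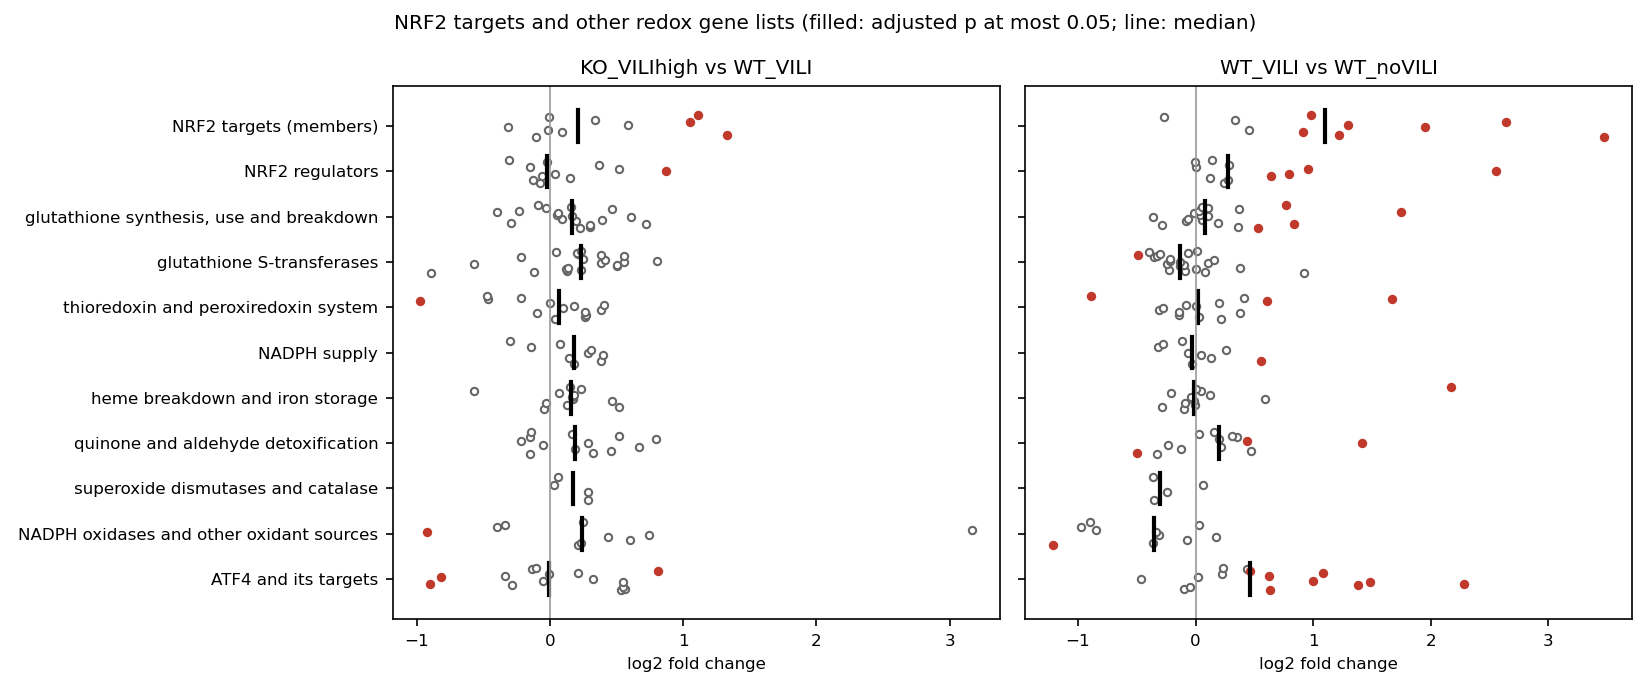
Log2 fold changes of the 10 NRF2-related genes and of 10 further lists in the authors' deposited tables of KO_VILIhigh against WT_VILI (left) and WT_VILI against WT_noVILI (right). Points are genes, filled at an adjusted p of at most 0.05, and black lines are list medians. After ventilation of wild type lungs the medians of the NRF2 targets (1.101) and of ATF4 and its targets (0.46) lie furthest right.

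The genes most like 3 of the members over the 4 deposited log2 fold changes were found by Euclidean distance among 13305 genes with a log2 mean CPM of at least 1 in every table. Nearest to Slc7a11 were Ptgs2 (distance 0.974), Lmcd1 (1.06), F3 (1.07), Eppk1 (1.14) and Mmp8 (1.24), all at some distance. Nearest to Hmox1 were Tlr2 (distance 0.225), Itpkc (0.257), Plaur (0.274), C5ar1 (0.357) and Gem (0.401). Nearest to Gclm were Ust (distance 0.058), Tex30 (0.0935), Pnpla2 (0.11), Bloc1s4 (0.119) and Pkd1l3 (0.122). Distances use unscaled log2 fold changes, which in WT_VILI against WT_noVILI were 0.46 for Gclm and 3.48 for Slc7a11 in the authors' deposited table. Their sizes are therefore not compared between members. The 4 comparisons share libraries, so these distances describe the tables and are given without a test.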

How the data were processed

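Per the submitters' processing notes, reads were aligned with Bowtie 1.1.2 to mm9 and analysed with R 3.0.1 and edgeR, whose version, counting, filter and settings are not given in the sources used here. The deposited tables hold a log fold change, a log mean CPM, a p-value and an adjusted p-value (FDR) per gene. Headers name neither log base nor reference group, and the deposited values were read as log2. The rebuilt reference of the KO_VILIlow and KO_VILIhigh tables differed, after median centring, from WT_VILI by a median of 0.0625 and 0.0449 log2, and from WT_noVILI by 0.229 and 0.226, over 13305 genes, so WT_VILI was taken as reference.

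Calls use an adjusted p of 0.05. Levels are 2 times the mean CPM divided by 1 plus the fold, for the reference. In all, 5 contrasts were derived from sums of deposited fold changes. Standard errors are the fold change over the normal quantile of its p. Where p exceeded 0.5, the median of 200 genes of like abundance was used. Benjamini-Hochberg adjustment ran over genes with a log2 mean CPM of at least 1. The procedure was tested on simulated data. Alternatives were a stricter threshold, other gene filters, median centring and other variances.

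Named genes are the 10 members, up to 3 called genes with the smallest p per list and table, Keap1, Bach1 and the small MAF genes, the 5 nearest genes of 3 members, and markers. Slc3a2, Gss, Sqstm1, Txn1, Prdx1, Cldn4 and, among called ATF4 targets, Trib3 and Atf4 were named outside that rule, after their values were seen. Members and lists were chosen with earlier results of these data known. Computations ran in Python 3.11.15 with scipy 1.17.1, numpy 2.4.6 and pandas 2.3.3, and plots were drawn with matplotlib 3.10.9.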

Additional observations from a re-analysis of the deposited data

Results flagged for a closer look

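Osgin1 and Hmox1 differed in their genotype difference with against without ventilation, by a derived test of that difference itself. Osgin1 was 1.16 log2 units higher in KO_VILIhigh relative to WT_VILI than in KO_noVILI relative to WT_noVILI (adjusted p = 0.00255). Hmox1 showed a difference of 0.98 log2 units (adjusted p = 0.0193). Both tests rest on approximate standard errors taken from deposited p-values, and sex cannot be told apart from ventilation in them. KO_VILIhigh was also sorted by its injury, so genotype and that sorting cannot be told apart. For low injury neither gene passed by the same derived test, with Osgin1 at 0.64 (adjusted p = 0.407) and Hmox1 at 0.10.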

How the results depend on the processing

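No paired analysis was possible because the files hold comparison tables without values per library, and for the same reason no replicate could be left out. Counts of called members stayed within 1.5 times under the alternatives run, with 2 exceptions. With variances averaged, 1 member (Hmox1) instead of 0 passed in KO_VILIhigh against KO_VILIlow. Averaging makes up for cancelled groups only if all groups have equal variance, which cannot be checked here. At an adjusted p of 0.01, 1 member (Osgin1) instead of 2 passed in the genotype difference with minus without ventilation for high injury. Of 350 values of single members under alternatives, 342 kept their direction and side of the threshold, 2 lost their call, 6 gained one and 0 reversed. Only median centring alters a fold change, so under the other settings no direction could have reversed. Depth per library is unknown, and the derived tests assume normal errors and independent tables although these share libraries.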
